A study of Mus musculus with 8 samples.

Results

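Axons find their targets by reading guidance cues: netrins, repulsive guidance molecules (RGM), Slits, ephrins and semaphorins. The 42 genes described here encode such ligands and their receptors, measured in the cortex of mice that lack Nova2. They were taken from a list of symbols, and the probe sets of the exon array that name exactly 1 of them gave 1169 probe sets out of 391597 on the array. Of these, 1098 (93.9%) passed a filter on dim signal, and 1097 of them gave a gene value for 41 of the 42 genes, among 11992 genes with a value. The exception was the semaphorin receptor gene Nrp2, which only 1 probe set named alone; 28 more named it together with Pard3b and were not used.

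The groups were 4 Nova2 knockout mice (Nova2 KO) and 4 wild type mice, all of the CD1 strain at postnatal day 10, with 1 Affymetrix exon array of total cortical RNA per mouse. The labels do not say which part of Nova2 was removed, whether the loss was limited to some cells, or whether the groups were littermates. The values were log2 signals per probe set made with PLIER, as deposited. The product of Nova2 binds RNA in neurons and steers the choice of alternative exons, and the comparison asks which transcripts and exons depend on it at this age.

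As background, Dcc is the attractive and the Unc5 proteins are repulsive receptors for netrin, neogenin (Neo1) binds RGM proteins, and Robo receptors carry the repulsive signal of Slits. Ephrins are held at the cell surface and signal to Eph receptor tyrosine kinases on touching cells, and semaphorins act through plexins, often with a neuropilin as binding partner. In cortex these families steer callosal, subcortical and thalamocortical axons and later shape branches and synapses. Several of these genes have alternative exons, and the splicing of Dcc is known to be a target of NOVA proteins.

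The label was first checked on Nova2 itself. Probe set 5294108 of Nova2 had 6.28, 7.17, 7.26 and 6.73 log2 on the Nova2 KO arrays 1 to 4, against 8.87, 8.65, 8.53 and 8.66 log2 on the wild type arrays 1 to 4. The groups lay far apart, with a difference of -1.82 log2 (SE 0.22, limma adjusted p = 0.0786 over all kept probe sets), while the gene value of Nova2 over 16 probe sets differed by -0.016 log2. Of the other 15 probe sets, 2 were higher in Nova2 KO without overlap, 4414499 by 0.70 log2 (SE 0.13) and 4355944 by 0.40 log2 (SE 0.14). Its paralog Nova1 differed by 0.38 log2 (SE 0.11, limma adjusted p = 0.251). Array medians lay between 7.02 and 7.37 log2. The arrays numbered 4 stood apart: 31 of the 41 guidance genes had their lowest Nova2 KO value on Nova2 KO 4, and 33 their lowest wild type value on wild type 4. The median deviation of the 41 genes from their group mean was -0.26 log2 on Nova2 KO 4 and -0.21 log2 on wild type 4, against 0.0077 to 0.11 log2 on the other 6 arrays. Over all genes the deviations of these arrays were -0.066 and -0.087 log2.

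**Figure D1:**
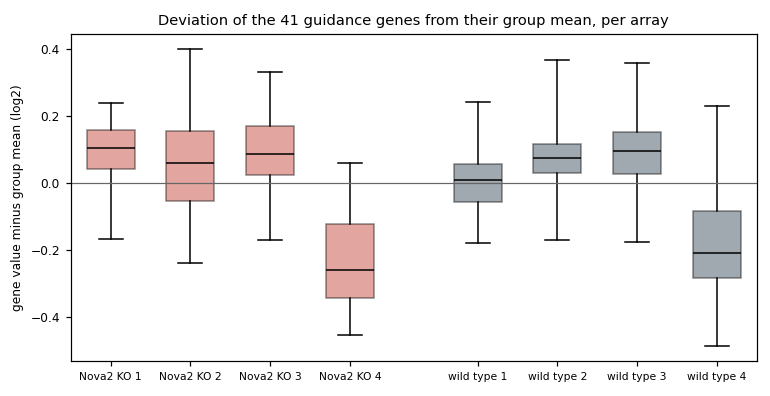
Deviation of the gene values of the 41 measured guidance genes from their group mean (y axis, log2) on each of the 4 Nova2 KO and 4 wild type arrays (x axis); boxes span the quartiles, the line is the median and whiskers reach the lowest and the highest gene. Nova2 KO 4 (median -0.26 log2) and wild type 4 (-0.21 log2) lie below the other 6 arrays.

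None of the 41 measured guidance genes passed the test of expression. The test was limma on the gene value, the median log2 signal of a gene's kept probe sets, with Benjamini-Hochberg adjustment over all genes at 0.05; it called 25 of 11992 genes (0.208%). At an unadjusted p under 0.05 there was 1 guidance gene of 41 (2.44%), Rgma, against 11.6% of all genes. The 4 Nova2 KO values lay wholly above or below the 4 wild type values for 2 of 41 genes (4.88%), Rgma and Efnb3, both higher in Nova2 KO, against 7.56% of all genes. In all, 18 guidance genes had a positive and 23 a negative difference, with a median of -0.021 log2, and the median over all genes was 0.022 log2. Without both arrays numbered 4 the median of the guidance genes was -0.0087 log2 and again none passed. Leaving out 1 array moved the difference by over 1.5 times for 39 of the 41 genes and turned its sign for 25.

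The 95% interval of every one of the 41 genes lay inside a 1.5-fold change in either direction (0.58 log2), as it did for 90.1% of all genes. These are intervals of single genes, not widened for their number. The median size of the difference was 0.068 log2, and the largest was 0.29 log2, for Rgma. The standard errors were like those of other genes, with a median of 0.12 log2 for the guidance genes and for all genes, while the median size of the difference over all genes was 0.11 log2. In RNA of whole cortex, fewer cells of a type and less RNA per cell cannot be told apart.

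**Figure D2:**
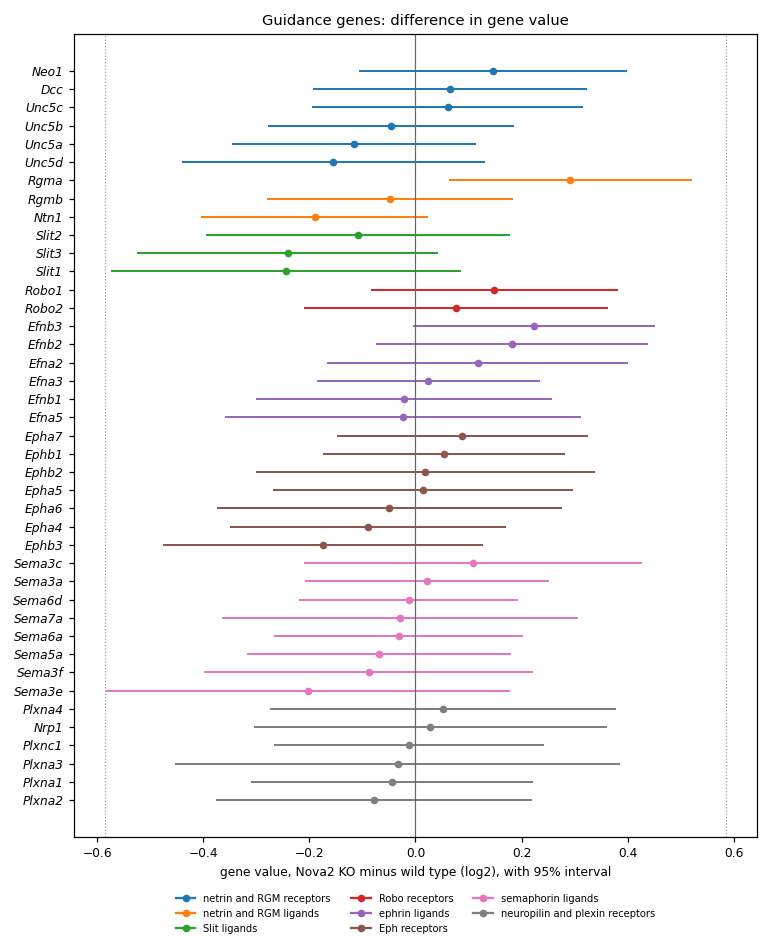
Difference in gene value, Nova2 KO minus wild type (x axis, log2), for the 41 measured guidance genes grouped by role; points are estimates over 4 arrays per group and bars their 95% intervals. The dotted lines mark a 1.5-fold change (0.58 log2); every bar lies inside them, and the bar of Rgma alone leaves out 0.

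Among the netrin and RGM ligands, Rgma had the largest difference of all 41 genes. Rgma encodes a surface protein that repels axons through neogenin. Its gene value was 10.36, 10.17, 10.31 and 10.10 log2 on Nova2 KO arrays 1 to 4, against 9.998, 10.06, 9.76 and 9.95 log2 on wild type arrays 1 to 4. All 4 Nova2 KO values lay above all 4 wild type values, and each of its 6 probe sets was higher in Nova2 KO. The means were 10.23 ± 0.12 log2 in Nova2 KO cortex and 9.94 ± 0.13 log2 in wild type cortex (SD, n = 4 each), a difference of 0.29 log2 (SE 0.10, 95% interval 0.065 to 0.52), and it did not pass (limma adjusted p = 0.307). Ntn1, which encodes the secreted cue netrin-1, had 7.36, 7.10, 7.21 and 7.25 log2 in Nova2 KO cortex, against 7.48, 7.52, 7.32 and 7.36 log2 in wild type cortex. Only the highest Nova2 KO array reached into the wild type range, and 8 of its 11 probe sets were lower, but the difference of -0.19 log2 (SE 0.098, limma adjusted p = 0.474) did not pass and was -0.034 log2 when the mean over probe sets replaced the median. Rgmb, the second RGM gene, differed by -0.048 log2 (SE 0.11).

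The 6 netrin and RGM receptor genes lay on both sides of 0, 3 positive and 3 negative, with a median of 0.0071 log2. Neo1, the receptor of RGM proteins, had 10.32, 10.17, 10.49 and 9.98 log2 in Nova2 KO cortex, against 10.14, 10.08, 10.13 and 10.01 log2 in wild type cortex. Nova2 KO arrays 1 to 3 lay above every wild type array and Nova2 KO 4 below them all. The difference was 0.15 log2 (SE 0.12, limma adjusted p = 0.663), with 33 of its 41 probe sets higher. It was 0.062 log2 without Nova2 KO 3 and 0.23 log2 without Nova2 KO 4. Dcc, the attractive netrin receptor, had 8.34, 8.43, 8.24 and 8.06 log2 in Nova2 KO cortex, against 8.13, 8.39, 8.30 and 7.99 log2 in wild type cortex. The groups overlapped almost fully, and the difference of 0.065 log2 (SE 0.12) was smaller than its standard error. The repulsive netrin receptors differed by -0.12 (Unc5a, SE 0.11), -0.047 (Unc5b, SE 0.11), 0.061 (Unc5c, SE 0.12) and -0.16 log2 (Unc5d, SE 0.13). For Unc5d, 22 of its 24 probe sets were lower in Nova2 KO, although probe sets of a gene read the same RNA and are not independent.

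**Figure D3:**
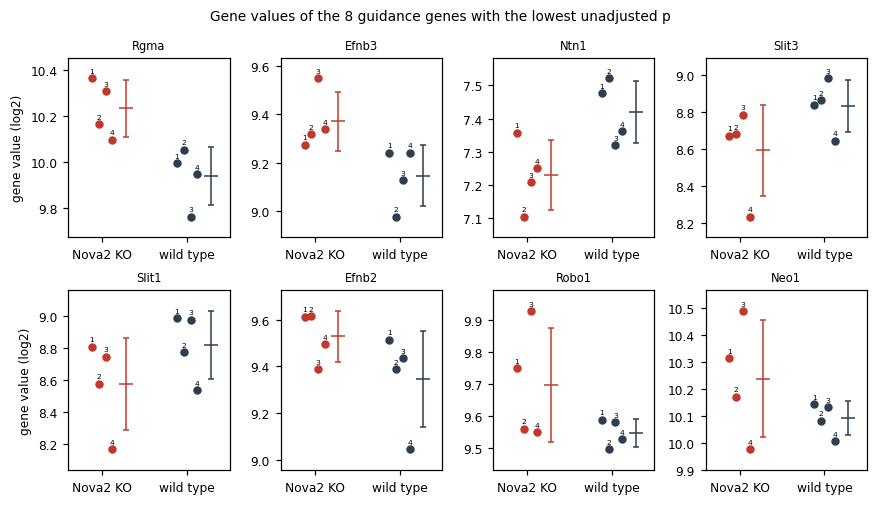
Gene value (y axis, log2, each panel with its own range) on the 4 Nova2 KO (left) and 4 wild type arrays (right) for the 8 guidance genes with the lowest unadjusted p in expression; points are arrays with their number, and the bar is the mean ± SD. The groups are apart for Rgma and Efnb3 and overlap for the other 6 genes, and array 4 is the lowest of its group for Neo1, Slit1 and Slit3 in both groups.

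All 3 Slit genes had negative differences and both Robo genes positive ones, and none passed. Slit1 had 8.81, 8.58, 8.75 and 8.16 log2 in Nova2 KO cortex, against 8.99, 8.77, 8.98 and 8.53 log2 in wild type cortex, a difference of -0.24 log2 (SE 0.15, limma adjusted p = 0.566). Slit3 had 8.67, 8.68, 8.79 and 8.23 log2 in Nova2 KO cortex, against 8.84, 8.87, 8.98 and 8.65 log2 in wild type cortex, a difference of -0.24 log2 (SE 0.13, limma adjusted p = 0.498). The groups overlapped in both genes: wild type 4 and 2 lay below the highest Nova2 KO array for Slit1, and wild type 4 for Slit3. Nearly all probe sets lay on the same side, 38 of 41 for Slit1 and 38 of 40 for Slit3. Array 4 was the lowest of both groups in both genes, so leaving it out of 1 group alone shifts the difference. Without Nova2 KO 4 the differences were -0.11 log2 for Slit1 and -0.12 log2 for Slit3. The Slit1 difference was -0.34 log2 without wild type 4, and the Slit3 difference was -0.31 log2 without Nova2 KO 3. Slit2, the third of these secreted repellents, differed by -0.11 log2 (SE 0.13), with probe sets evenly split, by 0.0060 log2 without Nova2 KO 4 and by -0.21 log2 without wild type 4.

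Robo1 encodes a Slit receptor of cortical axons and migrating neurons. It had 9.75, 9.56, 9.93 and 9.55 log2 in Nova2 KO cortex, against 9.59, 9.50, 9.58 and 9.53 log2 in wild type cortex. The wild type arrays lay close together and 2 of the Nova2 KO arrays lay among them. The difference was 0.15 log2 (SE 0.11, limma adjusted p = 0.626) and 0.072 log2 without Nova2 KO 3, the highest array. Robo2 differed by 0.076 log2 (SE 0.13), with 35 of its 38 probe sets higher in Nova2 KO, and by -0.0099 log2 without wild type 4.

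Of the 6 ephrin genes, 4 had positive differences, with a median of 0.071 log2. Efnb3, a transmembrane ephrin known as a midline barrier to corticospinal axons, had 9.28, 9.32, 9.55 and 9.34 log2 in Nova2 KO cortex, against 9.24, 8.98, 9.13 and 9.24 log2 in wild type cortex. The lowest Nova2 KO array lay just above the highest wild type array, so the groups did not overlap, and 10 of its 11 probe sets were higher. The means were 9.37 ± 0.12 log2 in Nova2 KO cortex and 9.15 ± 0.13 log2 in wild type cortex (SD, n = 4 each), a difference of 0.22 log2 (SE 0.10, 95% interval -0.0023 to 0.45, limma adjusted p = 0.436). It was 0.092 log2 with the filter at the 50th percentile. Efnb2, an ephrin also of blood vessels, had 9.61, 9.62, 9.39 and 9.49 log2 in Nova2 KO cortex, against 9.51, 9.39, 9.43 and 9.04 log2 in wild type cortex. Wild type 4 was the lowest array and the other 7 overlapped, for a difference of 0.18 log2 (SE 0.12, limma adjusted p = 0.585) that was 0.082 log2 without wild type 4. Efnb1, the remaining transmembrane ephrin here, differed by -0.021 log2 (SE 0.13), and by 0.18 log2 with the filter at the 50th percentile. The ephrins anchored by a lipid differed by 0.12 (Efna2, SE 0.13), 0.024 (Efna3, SE 0.096) and -0.023 log2 (Efna5, SE 0.15).

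The 7 Eph receptor genes lay between -0.17 log2 (Ephb3, SE 0.14) and 0.088 log2 (Epha7, SE 0.11), with 4 positive and 3 negative (3 and 4 after quantile normalization, where Epha5 turned sign). Epha4, which binds ephrins of both classes, ranged over 10.14 to 10.50 log2 in Nova2 KO cortex and 10.30 to 10.67 log2 in wild type cortex and differed by -0.089 log2 (SE 0.12). Its Nova2 KO range rested on array 4, and the other 3 Nova2 KO arrays lay within the wild type range. Epha5 and Epha6, receptors of ephrin-A in the map of cortical areas and their inputs, differed by 0.013 (SE 0.13) and -0.049 log2 (SE 0.15). Ephb1 and Ephb2, receptors of ephrin-B with roles in axon crossing and at synapses, differed by 0.054 (SE 0.10) and 0.019 log2 (SE 0.15). For Ephb3, 23 of its 26 probe sets were lower. Its gene value ranged over 7.49 to 7.92 log2 in Nova2 KO cortex and 7.57 to 8.10 log2 in wild type cortex, with overlap. The Ephb3 difference depended on the filter, at -0.34 log2 with the filter at the 50th percentile and -0.063 log2 without a filter.

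Among 8 semaphorin genes 6 had negative differences, with a median of -0.031 log2. Sema3e, a secreted cue whose receptor is plexin D1, had the largest difference of the 8, -0.20 log2 (SE 0.17), and ranged over 7.10 to 7.70 log2 in Nova2 KO cortex and 7.32 to 8.10 log2 in wild type cortex. The difference was -0.34 log2 without wild type 4 and -0.013 log2 with the filter at the 50th percentile. Sema3a, which repels cortical axons through neuropilin-1, differed by 0.022 log2 (SE 0.11), and Sema3c, which attracts them, by 0.11 log2 (SE 0.15). Sema3f, which acts through neuropilin-2, differed by -0.088 log2 (SE 0.14). The membrane-bound semaphorins differed by -0.068 (Sema5a, SE 0.11), -0.032 (Sema6a, SE 0.11), -0.013 (Sema6d, SE 0.094) and -0.030 log2 (Sema7a, SE 0.15). Their intervals all held 0, and their groups overlapped.

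The semaphorin receptor genes showed the smallest span of any role with more than 3 genes, from -0.078 log2 (Plxna2, SE 0.14) to 0.052 log2 (Plxna4, SE 0.15). Nrp1, the neuropilin that binds Sema3a, ranged over 8.35 to 8.87 log2 in Nova2 KO cortex and 8.35 to 8.94 log2 in wild type cortex, a difference of 0.028 log2 (SE 0.15). Plxna1 and Plxna3, which pair with neuropilins, differed by -0.044 (SE 0.12) and -0.033 log2 (SE 0.19), and Plxnc1, the receptor of Sema7a, by -0.012 log2 (SE 0.12). For Plxna3 both arrays numbered 4 were at 7.91 log2, the lowest of their groups. The single probe set of Nrp2, 4501560, had 6.11, 6.36, 6.36 and 5.14 log2 in Nova2 KO cortex, against 5.88, 6.24, 5.68 and 5.74 log2 in wild type cortex. These signals lay near the filter value of 5.86 log2 and overlapped, with a difference of 0.11 log2 (SE 0.27). Taken by side, 7 of 20 ligand genes and 11 of 21 receptor genes had positive differences, with medians of -0.026 log2 for ligands and 0.013 log2 for receptors.

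Exon usage was read as the splicing index, the log2 difference on each array between a probe set's signal and its gene value, which compares a piece of a transcript with the transcript as a whole. All 41 genes entered, with 1097 probe sets. None of the 1097 passed after adjustment over all probe sets, where 26 of 195014 did (0.0133%). At an unadjusted p under 0.05 there were 62 (5.65%), 33 with a higher and 29 with a lower index in Nova2 KO, against 6.76% of all probe sets. The index did not overlap between groups for 39 (3.56%), 20 higher and 19 lower, against 4.12% of all. With 1 p per gene, the Simes p over its probe sets, 0 of 41 genes passed, against 0.161% of all genes, and 4 of 41 (9.76%), Neo1, Epha7, Slit2 and Epha5, had an unadjusted Simes p under 0.05, against 8.37% of all genes. On the signal itself, without division by the gene, 0 of 1098 probe sets passed, against 0.00681% of all kept probe sets, and 41 (3.73%) had an unadjusted p under 0.05, against 6.68% of all. These shares are those of the guidance genes and of the whole array side by side, and no share of the guidance genes was tested against the rest.

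**Figure D4:**
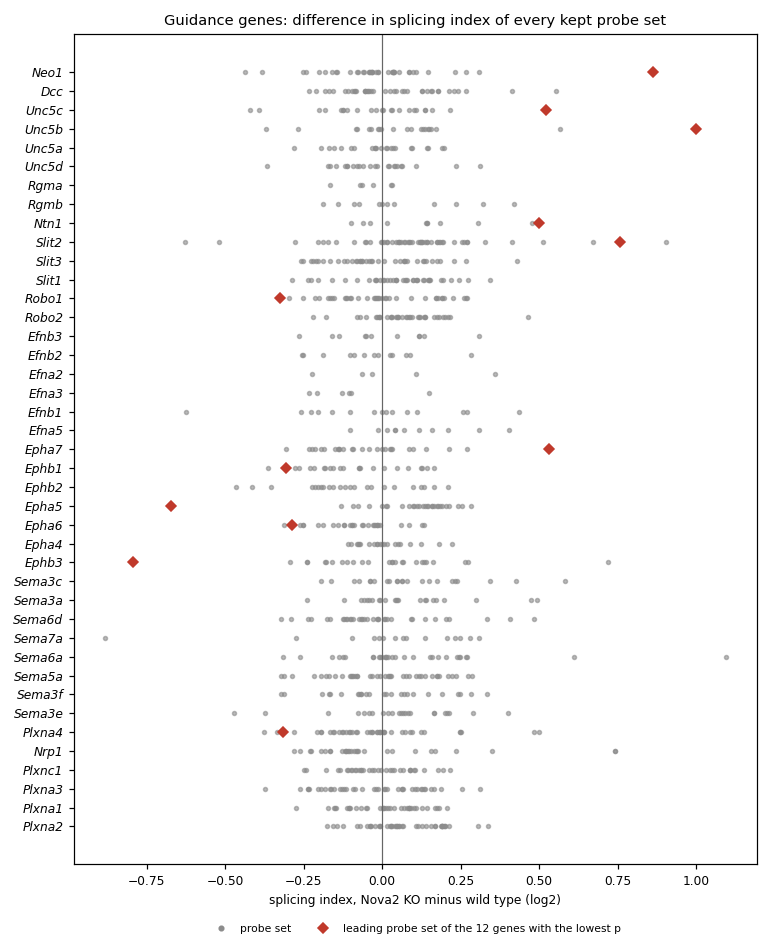
Difference in splicing index, Nova2 KO minus wild type (x axis, log2), of each of the 1097 kept probe sets of the 41 guidance genes (rows, grouped by role); each point is 1 probe set over 4 arrays per group, and red diamonds mark the leading probe set of the 12 genes with the lowest unadjusted p. Most points lie near 0, none passed after adjustment, and the diamond of Neo1 stands at 0.86 log2.

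The lowest p belonged to a probe set of the neogenin gene. In Neo1, probe set 4334084 had an index of 0.92, 0.85, 1.10 and 1.03 log2 on Nova2 KO arrays 1 to 4, against 0.11, 0.027, -0.058 and 0.37 log2 on wild type arrays 1 to 4. The lowest Nova2 KO array lay well above the highest wild type array. The difference was 0.86 log2 (SE 0.12, 95% interval 0.60 to 1.13, unadjusted p = 4.38e-05), and over all probe sets it did not pass (limma adjusted p = 0.143; Simes adjusted p = 0.278). The signal itself was 11.24, 11.02, 11.59 and 11.00 log2 in Nova2 KO cortex, against 10.25, 10.11, 10.08 and 10.38 log2 in wild type cortex, a difference of 1.01 log2 (SE 0.16, adjusted p = 0.217). It was a bright probe set on all arrays, and its groups were apart on this scale too. The 3 other Neo1 probe sets with an unadjusted p under 0.05 had a lower index, at -0.44 log2 (SE 0.12) for 5303686, -0.38 log2 (SE 0.15) for 4524171 and -0.20 log2 (SE 0.082) for 5099814. Neo1 is known to have alternatively spliced exons, but which exon each probe set covers was not analysed here.

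Slit2 came second. Its probe set 5286106 had an index of -0.28, -0.54, -0.39 and -0.27 log2 in Nova2 KO cortex, against -1.38, -0.96, -0.88 and -1.28 log2 in wild type cortex. The groups did not overlap, and the difference was 0.76 log2 (SE 0.13, limma adjusted p = 0.373), while the signal differed by 0.65 log2 (SE 0.20, adjusted p = 0.669). A second Slit2 probe set, 5303186, was also apart between groups, at 0.51 log2 (SE 0.12). The other 2 with an unadjusted p under 0.05 had differences of opposite sign, 4320607 by 0.90 log2 (SE 0.36) and 5253816 by -0.52 log2 (SE 0.22), and overlapped. The wild type signal of 4320607 averaged 5.64 log2, below the filter value of 5.86 log2, so the size of its difference is uncertain.

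The Eph receptor genes Epha7 and Epha5 followed, with opposite signs. In Epha7, probe set 5264528 had an index of -0.35, -0.61, -0.40 and -0.23 log2 in Nova2 KO cortex, against -0.92, -0.89, -0.91 and -0.99 log2 in wild type cortex. The wild type arrays lay close together and below every Nova2 KO array, a difference of 0.53 log2 (SE 0.10, limma adjusted p = 0.417). In Epha5, probe set 4312205 had -0.26, -0.39, -0.23 and -0.43 log2 in Nova2 KO cortex, against 0.50, 0.022, 0.25 and 0.60 log2 in wild type cortex. Every Nova2 KO array lay below 0 and every wild type array above it, so this probe set was dimmer than its gene value in Nova2 KO and brighter than it in wild type cortex. The difference was -0.67 log2 (SE 0.14, limma adjusted p = 0.478). The gene values of Epha7 and Epha5 differed by 0.088 and 0.013 log2, so the signal differences of these probe sets, 0.62 and -0.66 log2, were close to those of the index.

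**Figure D5:**
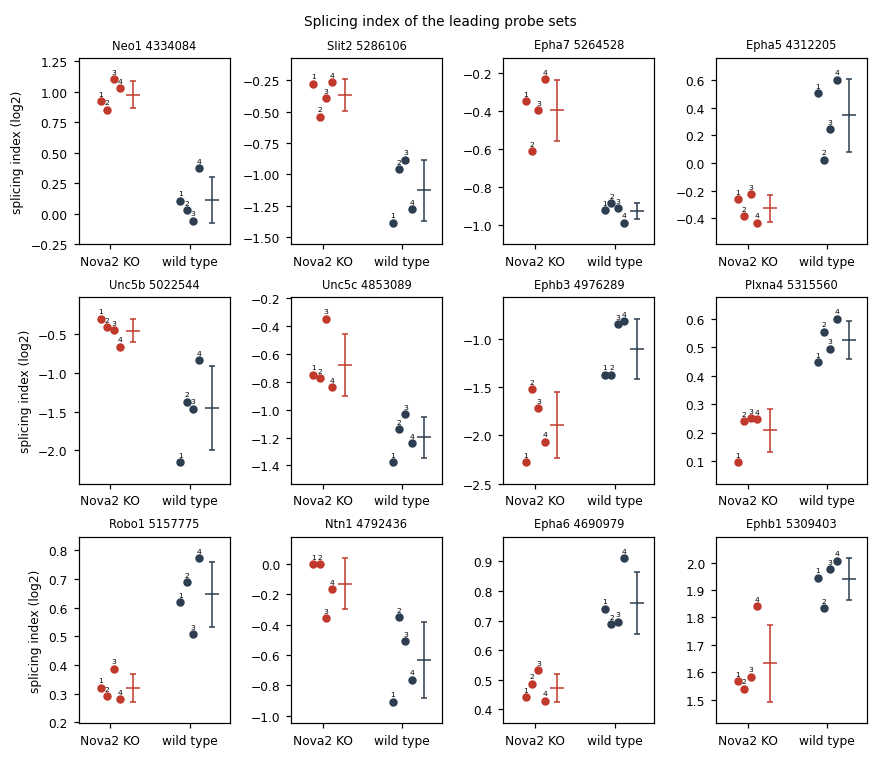
Splicing index (y axis, log2, each panel with its own range) of the leading probe set of the 12 guidance genes with the lowest unadjusted p in exon usage, on the 4 Nova2 KO (left) and 4 wild type arrays (right); points are arrays with their number, and the bar is the mean ± SD. The index groups are apart in 10 panels and overlap for Ntn1 and Ephb1. The panels were picked by low p, which favours groups that are apart. The index is apart for 3.56% of all guidance probe sets and 4.12% of all probe sets. On the signal itself the groups overlap for Unc5c, Plxna4, Robo1 and Epha6 and are apart for Ephb1. The Neo1 probe set lies at 0.85 to 1.10 log2 in Nova2 KO and -0.058 to 0.37 log2 in wild type cortex.

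The netrin receptors Unc5b and Unc5c each had a leading probe set with a higher index in Nova2 KO. For Unc5b, 5022544 had -0.30, -0.41, -0.45 and -0.66 log2 in Nova2 KO cortex, against -2.15, -1.37, -1.46 and -0.84 log2 in wild type cortex. The groups did not overlap and the difference was 1.00 log2 (SE 0.24, limma adjusted p = 0.561), but the wild type signal lay between 5.51 and 6.66 log2, around the filter value of 5.86 log2, so the size is uncertain. For Unc5c, 4853089 had -0.75, -0.77, -0.35 and -0.84 log2 in Nova2 KO cortex, against -1.38, -1.14, -1.03 and -1.24 log2 in wild type cortex, a difference of 0.52 log2 (SE 0.13, limma adjusted p = 0.579). Here too the groups were apart, with Nova2 KO 3 highest. In Ntn1, 4792436 had 0, 0, -0.36 and -0.17 log2 in Nova2 KO cortex, against -0.91, -0.35, -0.51 and -0.76 log2 in wild type cortex. The groups overlapped, and the zeros arise because this probe set was itself the median of the gene on those arrays; the difference was 0.50 log2 (SE 0.14, limma adjusted p = 0.633), and 0.31 log2 without wild type 1. The leading Dcc probe set, 4872504, overlapped between groups as well, with 0.56 log2 (SE 0.21). Its wild type signal was dim too, at 6.02 to 6.57 log2, near the filter value.

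The remaining 5 of the 12 genes with the lowest p had a leading probe set with a lower index in Nova2 KO. For Ephb3, 4976289 had -2.28, -1.52, -1.72 and -2.06 log2 in Nova2 KO cortex, against -1.37, -1.37, -0.85 and -0.81 log2 in wild type cortex, a difference of -0.79 log2 (SE 0.20). The groups were apart, but the Nova2 KO signal was dim, at 5.43 to 6.40 log2. For Plxna4, 5315560 had 0.096, 0.24, 0.25 and 0.25 log2 in Nova2 KO cortex, against 0.45, 0.56, 0.50 and 0.60 log2 in wild type cortex, a difference of -0.32 log2 (SE 0.084). All 4 Nova2 KO arrays lay below the wild type arrays. Plxna4 had 5 probe sets with an unadjusted p under 0.05, 2 with a higher and 3 with a lower index.

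For Robo1, 5157775 had 0.32, 0.29, 0.39 and 0.28 log2 in Nova2 KO cortex, against 0.62, 0.69, 0.51 and 0.77 log2 in wild type cortex, a difference of -0.33 log2 (SE 0.089). The index groups were apart, while the signal differed by -0.18 log2 (SE 0.14, adjusted p = 0.869), less than the index, since the gene value was 0.15 log2 higher in Nova2 KO. Robo1 had 6 probe sets with an unadjusted p under 0.05, the most of any of the genes, 3 higher and 3 lower. For Epha6, 4690979 had 0.44, 0.49, 0.53 and 0.43 log2 in Nova2 KO cortex, against 0.74, 0.69, 0.70 and 0.91 log2 in wild type cortex, a difference of -0.29 log2 (SE 0.087). For Ephb1, 5309403 had 1.57, 1.54, 1.58 and 1.84 log2 in Nova2 KO cortex, against 1.94, 1.83, 1.98 and 2.01 log2 in wild type cortex, a difference of -0.31 log2 (SE 0.098). The Epha6 groups were apart, and the Ephb1 groups overlapped through Nova2 KO 4. None of these 5 passed (limma adjusted p = 0.579 to 0.666).

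Of the 41 genes, 32 (78.0%) had at least 1 probe set with an unadjusted p under 0.05, against 58.7% of all genes, and 9 had none. A guidance gene had a median of 25 probe sets in exon usage, against 14 over all genes. The 9 were Rgma, Robo2, Efna2, Efna3, Efnb1, Epha4, Ephb2, Sema3f and Plxnc1. Rgma, the gene with the largest expression difference, had index differences between -0.17 and 0.032 log2 over its 6 probe sets. The signal of its leading probe set, 4411460, differed by 0.13 log2 (SE 0.26), less than the 0.29 log2 of the gene value. The highest counts were 6 of 39 probe sets in Robo1 and 5 of 43 in Plxna4, while Epha7 had 4 of 27, Slit2 4 of 55 and Dcc 1 of 39.

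Some of these lesser probe sets had large differences with large errors. In Nrp1, 4340007 differed by 0.74 log2 (SE 0.26), and in Sema7a, 5271984 differed by -0.88 log2 (SE 0.36). The groups overlapped in both. For Sema7a the Nova2 KO arrays were split, at 0.26, -1.46, 0 and -1.22 log2 on arrays 1 to 4, against 0.22 to 0.34 log2 in wild type cortex. In the ephrin gene Efna5 both such probe sets had a higher index in Nova2 KO, 4568213 by 0.41 log2 (SE 0.14) and 4599623 by 0.31 log2 (SE 0.11), and in Efnb2 both had a lower one, 5322522 by -0.25 log2 (SE 0.084) and 4892878 by -0.25 log2 (SE 0.087). The Efnb2 signals themselves differed by only -0.072 and -0.070 log2, against a gene value that was 0.18 log2 higher. Slit1 and Slit3 were the reverse case: each had 2 such probe sets, all 4 with a higher index, while their signals differed by 0.028 (Slit1 5354198), 0.099 (Slit1 4662555), -0.012 (Slit3 4441620) and 0.19 log2 (Slit3 5085322), against gene values at -0.24 log2 in both genes.

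Outside these 42 genes, 32 of 35 other guidance ligand and receptor genes were measured (not Ntn5, Draxin and Sema3g), and none passed. Of these, 11 had positive and 21 negative differences, with a median of -0.077 log2, and 4 (12.5%) had an unadjusted p under 0.05, against 11.6% of all genes. These 4 are given as the lowest p of the list. Epha3, an ephrin-A receptor, ranged over 8.26 to 8.58 log2 in Nova2 KO cortex and 7.65 to 8.09 log2 in wild type cortex, a difference of 0.52 log2 (SE 0.12, limma adjusted p = 0.172). Flrt3, an adhesion protein that binds Unc5 receptors, ranged over 8.12 to 8.36 log2 in Nova2 KO cortex and 7.64 to 8.11 log2 in wild type cortex, a difference of 0.39 log2 (SE 0.12, limma adjusted p = 0.256). Both were higher in Nova2 KO with no overlap. Plxnb3 and Sema4d, a plexin and a semaphorin both known from oligodendrocytes, had lower values in Nova2 KO with no overlap, with differences of -0.35 (SE 0.11, limma adjusted p = 0.263) and -0.27 log2 (SE 0.12, limma adjusted p = 0.390). The mean of 9 oligodendrocyte and myelin genes was also lower, at 8.74 to 8.98 log2 in Nova2 KO cortex and 9.16 to 9.30 log2 in wild type cortex, and its part in these 2 differences was not tested.

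Of 49 genes of proteins that carry guidance signals inside the cell, 46 were measured and none passed. Of these, 29 had positive and 17 negative differences, with a median of 0.057 log2, and 3 (6.52%) had an unadjusted p under 0.05, against 11.6% of all genes. Dpysl3, of the collapsin response mediator proteins that link semaphorin signals to microtubules, ranged over 12.08 to 12.24 log2 in Nova2 KO cortex and 11.59 to 11.86 log2 in wild type cortex, a difference of 0.45 log2 (SE 0.096, limma adjusted p = 0.131). Dpysl5, of the same family, differed by 0.35 log2 (SE 0.091, limma adjusted p = 0.205), and Ngef, the exchange factor ephexin that acts below Eph receptors, by -0.24 log2 (SE 0.091, limma adjusted p = 0.329). In all 3 the groups did not overlap. Mical2, of a family of actin-oxidising enzymes that act below plexins, came next at -0.26 log2 (SE 0.13), with overlap.

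Markers of the labelled tissue were present: the mean gene value of 5 measured markers of cortical excitatory neurons (Neurod6, Slc17a7, Tbr1, Neurod2 and Bcl11b) was 9.61 to 9.91 log2 on the Nova2 KO arrays and 9.58 to 9.75 log2 on the wild type arrays. These levels did not single out cortex. In Nova2 KO and wild type cortex the means were 9.84 and 9.98 log2 for 4 striatum genes. For 2 choroid plexus genes they were 10.13 and 10.12 log2. The means of hippocampus (8.79 and 8.93 log2), thalamus (8.10 and 8.06 log2) and meninges (8.82 and 8.94 log2) were lower. A pair of marker lists differed without overlap. Of the 9 oligodendrocyte and myelin genes given above, 8 were lower, and 6 (66.7%) had an unadjusted limma p under 0.05, against 11.6% of all genes. These 6 were Mog, Mag, Mobp, Cnp, Cldn11 and Mbp, at -0.77 (Mog) to -0.34 log2 (Mbp). Olig1, Olig2 and Sox10 differed by only -0.11, -0.0075 and 0.046 log2. Mog passed the test, at 8.02 to 8.33 log2 in Nova2 KO cortex and 8.74 to 9.23 log2 in wild type cortex, a difference of -0.77 log2 (SE 0.13, limma adjusted p = 0.0301). The mean of 6 genes of immature neurons was 10.89 to 11.03 log2 in Nova2 KO and 10.58 to 10.78 log2 in wild type cortex, with 6 of 6 higher. Only 1 of 6 (16.7%), Dcx, had an unadjusted limma p under 0.05, against 11.6% of all genes. The other genes of this list overlapped between groups, with differences of 0.077 (Tubb3) to 0.19 log2 (Sox11), so Dcx weighs heavily in the mean. Dcx passed, at 10.56 to 10.79 log2 in Nova2 KO cortex and 9.63 to 10.09 log2 in wild type cortex, a difference of 0.81 log2 (SE 0.11, limma adjusted p = 0.0133). The list means overlapped, and no gene passed, for upper-layer and deep-layer neurons, interneurons, astrocytes, vessels, microglia, meninges, choroid plexus, striatum, hippocampus and thalamus. Some single genes of these lists were still apart between groups, in both directions. Of the deep-layer genes, 7 of 7 had positive differences, and 3 (42.9%) had an unadjusted limma p under 0.05, against 11.6% of all genes. The deep-layer mean was 8.88 to 9.12 log2 in Nova2 KO cortex and 8.73 to 8.89 log2 in wild type cortex. No measured marker of these lists was at the floor of 4 log2. The filter at 5.86 log2 had removed dim probe sets beforehand, so this does not show that the markers were expressed. The part of these lists in the values of the guidance genes was not tested.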

How the data were processed

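Total cortical RNA of 4 Nova2 KO and 4 wild type mice was measured on exon arrays, 1 per mouse. Per the submitters' processing notes, the deposited log2 values were summarised by the authors with PLIER (version not given). Background correction, normalization and genome build are not given in the sources used here. Values were left as deposited, and other scalings were tried as alternatives. Precision is limited by the number of arrays.

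Probe sets were named from the platform annotation, with symbols updated through a gene table of assembly GRCm38.p6: 228454 named 1 gene, 3443 several and 159700 none. They were kept where the mean exceeded the 25th percentile (5.86 log2). The gene value was the median over at least 3 kept probe sets naming 1 gene, and the splicing index needed at least 5; 307 had an index without variance and stayed in the adjustment. Testing used limma 3.58.1 in R 4.3.3 (lmFit, eBayes, two-sided, Benjamini-Hochberg at 0.05, without covariates or a replicate block), after trials on simulated data. Figures were drawn with matplotlib 3.10.9.

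Each measured gene's difference is given. Values on every array are given for guidance genes whose groups were apart, for the 8 with the lowest p, and for the leading probe set of the 12 lowest in exon usage; other guidance lists name up to 4 genes each, and marker lists those that passed and the excitatory neuron markers. The genes and lists were chosen with earlier results of these data known. Alternatives covered the filter, the summary, normalization, the offset, a covariate, a block and left-out arrays.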

Additional observations from a re-analysis of the deposited data

Results flagged for a closer look

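Groups of 4 arrays were checked 82 times for gene values and 24 times for leading probe sets. In 9 of these, 1 array stood far from the other 3 of its group. Chance gives about 1 in 20 independent groups. These checks shared the same arrays and the probe sets were picked by low p, so the 9 cannot be set against that rate. Nova2 KO 4 was low for the gene values of 3 genes: Epha4 (10.14 log2 against 10.45 to 10.50 log2 on the other Nova2 KO arrays), Sema3e (7.10 log2 against 7.65 to 7.70 log2) and Plxna1 (9.83 log2 against 10.23 to 10.31 log2). Wild type 4 was low for Ephb3 (7.57 log2 against 8.02 to 8.10 log2 on the other wild type arrays) and Sema3f (7.60 log2 against 8.05 to 8.08 log2). Sema3a was low on Nova2 KO 3 (8.71 log2 against 8.87 to 8.90 log2), and Rgmb was low on wild type 3 (8.31 log2 against 8.49 to 8.52 log2). In exon usage, the index of Plxna4 probe set 5315560 was low on Nova2 KO 1 (0.096 log2 against 0.24 to 0.25 log2), and that of Ephb1 probe set 5309403 was high on Nova2 KO 4 (1.84 log2 against 1.54 to 1.58 log2). The share of values at the floor was 2.20% on Nova2 KO 4 and 3.34% on wild type 4, against 0.991% to 1.53% on the other 6 arrays; its part in these values was not tested.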

How the results depend on the processing

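Under each of 17 other settings, 0 of the guidance genes passed in expression and by Simes and 0 of their probe sets in exon usage; 0 passed in signal under the 16 settings that apply to it. The counts over all genes moved more, and the cause was not tested. In expression, where 25 genes passed, there were 13 with median centring, 54 with the array median as a covariate, 12 without both arrays numbered 4 (chosen after seeing the data), and 6 to 16 with 1 array left out. In exon usage, where 26 probe sets passed, there were 15 without a filter, 43 with the mean over probe sets, 2 without both arrays numbered 4, and 10 to 16 with 1 array left out. With the number in the sample titles fitted as a replicate block, 80 genes and 4 probe sets passed; the numbers were not taken as pairs, since the deviations of same-numbered arrays correlated at 0.14, 0.33, 0.024 and 0.57 and only 2 of 4 Nova2 KO arrays correlated best with their own number.

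The median difference of the guidance genes ranged between -0.069 log2 (without wild type 4) and 0.068 log2 (without Nova2 KO 4). Of 697 recomputed expression differences 73 had the opposite sign, and the lowest limma adjusted p was 0.155 (Rgma, array median as a covariate). All 201 recomputed index differences of the 12 leading probe sets kept their sign, with a lowest limma adjusted p of 0.0716 (Neo1, filter at the 50th percentile).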
